A study of Mus musculus with 12 samples.

Results

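T cell receptor alpha chains built from the TRAV9 family of variable segments were examined in T cells from mouse tumours. The members were chosen by the V segment that the authors' files assign to each chain, among 10 names: TRAV9-1, TRAV9-2, TRAV9-4, TRAV9D-1, TRAV9D-2, TRAV9D-3, TRAV9D-4, TRAV9N-2, TRAV9N-3 and TRAV9N-4. They made up 2381 of 24173 alpha chains. After filtering, 2200 of 19115 cells with a beta chain and an alpha chain carried one, in 1160 of 10624 clonotypes. A clonotype is the set of cells of one library with the same beta chain (TRB) and a shared alpha chain (TRA), and a receptor is a clonotype with one of its alpha chains, of which 1167 of 12079 used TRAV9. V segment use was measured in these libraries, so the sizes of the family and its members are a description.

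The tumours were MC38 colon carcinoma, a mouse line, in a p53 knockout derivative to which the labels assign a p53 substitution in conflicting notations, grown under the skin of C57BL/6J mice of 6 to 8 weeks. Both groups carried these tumours and received 1 dose of 40 µg into the tumour on day 10 after engraftment, either LNP-Ctrl or LNP-P20-mAb. When the tumours were taken is not stated in the labels. Leukocytes bearing CD45 were sorted, and 3 libraries per treatment were enriched for T cell receptor transcripts, and the 6 samples for gene expression are not analysed here. The labels do not say whether libraries of one group came from separate mice, so p-values measure the spread between libraries, which may be technical.

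An alpha chain forms when one V segment joins one J segment in the thymus. The V segment encodes the first 2 complementarity-determining loops (CDR1 and CDR2), which touch mainly the presenting molecule, and the join makes CDR3, which touches mainly the peptide. TRAV9 was formerly called the V-alpha-3 family. In the mouse its segments lie in repeated blocks, whose copies carry D or N in their names, and joining starts between V and J segments that lie near each other and can move outwards in later rounds.

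The 6 libraries held 2016 to 3923 paired cells and 85835 to 145847 unique molecular identifiers (UMIs). LNP-P20-mAb 1 and LNP-P20-mAb 2 stood apart from the rest. They shared 17 TRAV9 receptors with identical alpha and beta bases, carried by 90.4% and 86.9% of their TRAV9 cells, and no other pair of libraries shared any. Those 2 libraries had 15 cell barcodes in common, 1 of them with the same TRB, and other pairs of libraries had 11 to 29, none with the same TRB. Main results were therefore also computed with both pooled into 1 sample.

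The loops that the V segments encode are shown because they hold some of the few bases that separate the copies. Capitals mark bases that differ from TRAV9-2, and each sequence is the commonest in the deposited chains of that member, 5′ to 3′.
TRAV9-2 CDR1: tactctgggacaccttat
TRAV9-4 CDR1: tactctgggacGccttat
TRAV9N-2 CDR1: tCctctgggacaccttat
TRAV9N-3 CDR1: tactTtgggacaccttat
TRAV9N-4 CDR1: tactctgCgacaccttat
TRAV9-1 CDR1: taTGGtggATcCATttaC
TRAV9-2 CDR2: tactattcaggagacccagtggtt
TRAV9-4 CDR2: tactattcCggagacccagtggtt
TRAV9N-3 CDR2: tactatCcaggagacccagtggtt
TRAV9-1 CDR2: tactattcGggaAacccagtggtt

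Some members had loops in common. TRAV9D-4 had the CDR1 of TRAV9N-4. TRAV9D-1 had the same bases as TRAV9-1 in both loops, and its whole V region differed from that of TRAV9-1 at 2 of 270 bases. The V regions of TRAV9-2, TRAV9-4, TRAV9N-2, TRAV9N-3 and TRAV9N-4 differed from one another at 4 to 9 bases, and from those of TRAV9-1 and TRAV9D-1 at 48 to 52. TRAV9-2 and TRAV9-4 encode the same residues in CDR1 and CDR2. TRAV9N-3 differed from them by 1 residue in each loop, TRAV9N-2 and TRAV9N-4 by 1 residue in CDR1, and TRAV9-1 by 3 residues in CDR1 and 1 in CDR2. The commonest V region of a member was carried by 99.4% to 100% of its chains. Because so few bases separate the copies, a chain's copy name is less certain than its family.

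The CDR3 sequences that the results turn on follow, with capitals for bases that match neither the V nor the J segment as the other chains of the same segments show them. Beta chains also hold a diversity (TRBD) segment, which was not matched, so its bases are in capitals too. The first 8 lines are alpha and beta loops of receptors that joined TRAV9 to TRAJ27 and paired with TRBV10. Clone sizes count all cells of the clonotype, and the alpha chain was detected in 6 of the 8 cells of the LNP-P20-mAb 1 clonotype and in 5 of the 7 of the LNP-Ctrl 1 clonotype.
LNP-P20-mAb 3, clonotype of 12 cells, TRAV9-2 TRAJ27: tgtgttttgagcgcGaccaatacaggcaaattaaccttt
LNP-P20-mAb 3, clonotype of 12 cells, TRBV10 TRBJ1-4: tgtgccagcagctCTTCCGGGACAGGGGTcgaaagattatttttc
LNP-P20-mAb 1, clonotype of 8 cells, TRAV9-2 TRAJ27: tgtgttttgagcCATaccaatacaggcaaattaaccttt
LNP-P20-mAb 1, clonotype of 8 cells, TRBV10 TRBJ2-3: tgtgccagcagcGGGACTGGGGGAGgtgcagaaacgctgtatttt
LNP-Ctrl 2, clonotype of 6 cells, TRAV9-4 TRAJ27: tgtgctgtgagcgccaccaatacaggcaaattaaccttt
LNP-Ctrl 2, clonotype of 6 cells, TRBV10 TRBJ2-3: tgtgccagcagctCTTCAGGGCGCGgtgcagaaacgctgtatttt
LNP-Ctrl 1, clonotype of 7 cells, TRAV9-2 TRAJ27: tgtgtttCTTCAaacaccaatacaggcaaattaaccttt
LNP-Ctrl 1, clonotype of 7 cells, TRBV10 TRBJ2-3: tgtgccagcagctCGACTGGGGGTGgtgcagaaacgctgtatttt
Largest clone, TRAV9-2 TRAJ48: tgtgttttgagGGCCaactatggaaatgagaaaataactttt
Largest clone, TRBV15 TRBJ1-5: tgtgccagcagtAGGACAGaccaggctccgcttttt
First TRAV9N-3 TRAJ33 clone, alpha: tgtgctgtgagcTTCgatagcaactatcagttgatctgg
First TRAV9N-3 TRAJ33 clone, TRBV2 beta: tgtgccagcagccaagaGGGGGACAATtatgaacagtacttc
Second TRAV9N-3 TRAJ33 clone, alpha: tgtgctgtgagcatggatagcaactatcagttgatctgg
Second TRAV9N-3 TRAJ33 clone, TRBV2 beta: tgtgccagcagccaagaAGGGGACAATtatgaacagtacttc

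Members differed widely in use. TRAV9N-3 formed 315 receptors, TRAV9-4 243, TRAV9-2 225, TRAV9-1 166 and TRAV9N-4 142. TRAV9D-1 formed 40, TRAV9N-2 32 and TRAV9D-4 4. TRAV9D-2 and TRAV9D-3 had 0 chains, which at 24173 alpha chains allows a share of up to 0.0124% each, for counting error only. The limit holds for chains given these names, and chains of these segments named as another copy would not be counted. The unmarked segments together gave 54.3% of TRAV9 receptors, the N copies 41.9% and the D copies 3.77%. The deposited V region of TRAV9D-4 was 240 bases long and held no CDR2, in all 5 of its chains.

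By cells the order changed, because some receptors belonged to large clones. TRAV9-2 was carried by 778 cells, 3.46 per receptor, and TRAV9N-3 by 556, or 1.77 per receptor. TRAV9-4 was carried by 334 cells, TRAV9-1 by 286, TRAV9N-4 by 163, TRAV9D-1 by 49, TRAV9N-2 by 34 and TRAV9D-4 by 4.

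The members differed in the median number of the TRAJ segments they joined. TRAJ numbers fall with distance from the V segments, and RefSeq (assembly GRCm38.p6) lists the D copies first, then the N copies, then TRAV9-1, TRAV9-2 and TRAV9-4 next to the J segments. The median TRAJ number was 39 for TRAV9-4, the member listed nearest to the J segments, 31 for TRAV9-2 and 29 for TRAV9-1. It was 22 for TRAV9N-4, 21 for TRAV9N-3 and 15.5 for TRAV9N-2. The quartiles of TRAV9-4 were 31 and 47 and those of TRAV9N-3 11 and 32, so the ranges of single receptors overlapped. Those of TRAV9-1, 18 and 33, lay close to those of TRAV9N-4, 17 and 30. TRAV9D-1, listed farthest away, had a median of 31.5 over 40 receptors, within the range of the unmarked segments. These medians are a description over receptors pooled from all libraries, and the difference was not tested.

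**Figure D1:**
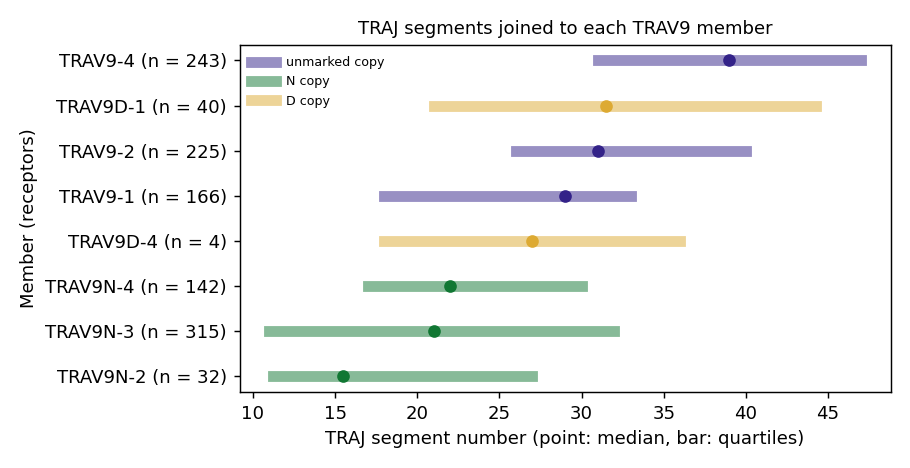
TRAJ segment number (x axis) for each TRAV9 member (y axis, with its number of receptors); points are medians, bars run between the quartiles and colours mark the copy. The medians of the 3 N copies lie between 15.5 and 22, below the 29 to 39 of the unmarked segments.

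The share of clonotypes that held a TRAV9 chain was 11.0%, 10.9% and 10.5% in the LNP-Ctrl libraries and 11.4%, 13.8% and 10.9% in the LNP-P20-mAb libraries. The groups overlapped (10.8% ± 0.254 against 12.0% ± 1.51, SD, n = 3 each; two-sided exact permutation p = 0.2, adjusted over the 6 single-value tests 0.3, where 3 against 3 cannot go below 0.1). The difference of 1.23 percentage points was 0.730 with LNP-P20-mAb 1 and 2 pooled (exact permutation p = 0.2) and 0.367 without LNP-P20-mAb 2. The share of cells was 8.88%, 11.3% and 10.4% in LNP-Ctrl. It was 15.3%, 17.4% and 7.84% in LNP-P20-mAb, so LNP-P20-mAb 3 had the lowest share of all and LNP-P20-mAb 1 and 2 the highest. The means were 10.2% ± 1.24 and 13.5% ± 5.02 (SD, n = 3 each; exact permutation p = 0.4, adjusted 0.48). The difference of 3.31 points was 1.77 with LNP-P20-mAb 1 and 2 pooled (exact permutation p = 0.8), 1.36 without LNP-P20-mAb 2 and 6.14 without LNP-P20-mAb 3. Leaving out 1 clone turned the direction: without the largest TRAV9 clone the shares in LNP-P20-mAb 1 and 2 were 7.80% and 10.2%. The difference between treatments was then -1.58 percentage points (exact permutation p = 0.2). That clone was in these libraries only, so the LNP-Ctrl shares kept their own large clones, and it was left out after its size was seen.

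No member passed the test between treatments. edgeR's quasi-likelihood test on clonotypes per segment called 4 of 155 V and J segments of both chains (2.58%) at an adjusted p of 0.05, and 0 of 7 TRAV9 members. At an unadjusted p of 0.05 the count was 1 of 7 members, beside 29 of 155 segments (18.7%), and DESeq2 also called 0 members. The member with the lowest p was TRAV9N-3, found in 3.06%, 3.01% and 2.17% of LNP-Ctrl clonotypes and in 4.80%, 5.00% and 3.40% of LNP-P20-mAb clonotypes. The groups did not overlap, and the log2 change was 0.62 ± 0.22 (SE; edgeR adjusted p = 0.203). Some TRAV9N-3 receptors were the same by bases in LNP-P20-mAb 1 and 2, so the shares of these libraries are not independent. With both pooled the log2 change was 0.55 (edgeR adjusted p = 0.285). Without LNP-Ctrl 1 TRAV9N-3 passed (log2 change 0.67, edgeR adjusted p = 0.0352), when 14 of 153 segments (9.15%) were called in all. Over all alternatives the adjusted p ran from 0.0352 to 0.462.

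TRAV9-4 lay the other way. It was in 2.33%, 2.49% and 2.46% of LNP-Ctrl clonotypes and in 1.60%, 1.75% and 1.77% of LNP-P20-mAb clonotypes. The groups did not overlap, yet in LNP-P20-mAb 1 and 2 the shares rested on 9 and 7 receptors, and the log2 change of -0.50 ± 0.24 did not pass (SE; edgeR adjusted p = 0.273). TRAV9-2 had a log2 change of 0.42 ± 0.25, TRAV9-1 of -0.29 ± 0.32, TRAV9N-4 of -0.16 ± 0.34, TRAV9D-1 of -0.14 ± 0.54 and TRAV9N-2 of -0.55 ± 0.63. The median over the 7 members was -0.16, beside -0.05 over all 155 segments. Of the 7 members tested, TRAV9N-3 was higher in LNP-P20-mAb with no overlap of the clonotype shares and TRAV9-4 lower, beside 36 of all 155 segments (23.2%) whose shares did not overlap in either direction.

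Counting the cells of the clonotypes, 3 of 7 members were lower in LNP-P20-mAb with no overlap, beside 49 of 160 segments (30.6%) with none in either direction, 44 of them lower. TRAV9-1 was in 1.77%, 2.45% and 1.98% of LNP-Ctrl cells and in 0.705%, 0.843% and 0.703% of LNP-P20-mAb cells. TRAV9-4 was in 1.56%, 2.57% and 2.41% against 0.828%, 1.29% and 1.37%. TRAV9N-2, the rarest of these, was in 0.0900%, 0.306% and 0.375% against 0.0613%, 0.0496% and 0.0703%. A fit on cells in place of clonotypes gave TRAV9-1 a log2 change of -1.46 (edgeR adjusted p = 0.137). It gave TRAV9-2 1.74 (edgeR adjusted p = 0.136), and 0 members passed.

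**Figure D2:**
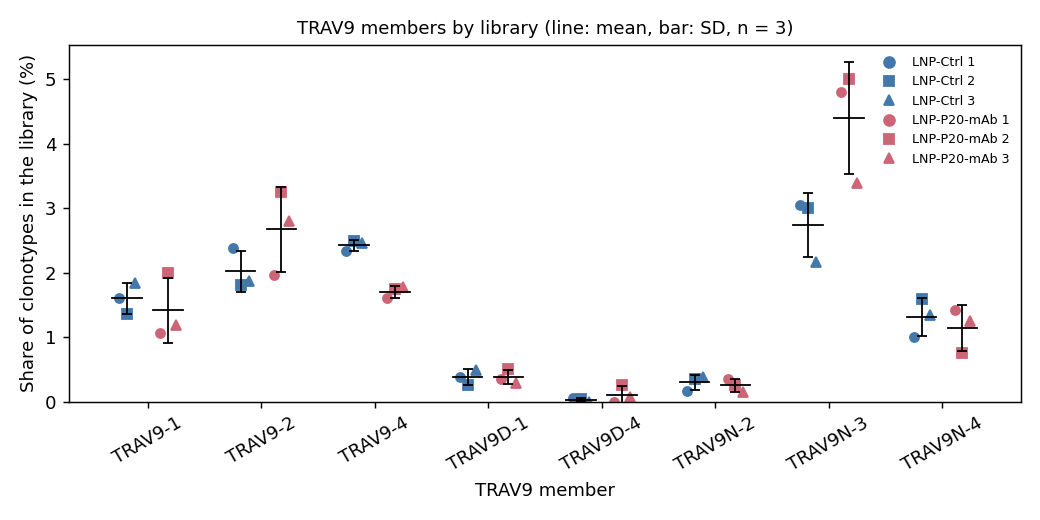
Share of a library's clonotypes (y axis, percent) that hold each of the 8 TRAV9 members with chains (x axis); each symbol is 1 library, lines are means and bars the SD over 3 libraries. TRAV9N-3 runs from 2.17% to 3.06% in LNP-Ctrl and from 3.40% to 5.00% in LNP-P20-mAb, and TRAV9-4 from 2.33% to 2.49% and from 1.60% to 1.77%. Some receptors of LNP-P20-mAb 1 and 2 are the same by bases.

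Across libraries the use of TRAV9 moved most like that of TRAV6, TRAV7 and TRAV15 among 17 TRAV families. The mean absolute difference from TRAV9, over 6 libraries, in the log2 ratio of a library's share to the mean share was 0.0777, 0.0847 and 0.121 for these families. TRAV15 had 83 clonotypes over all libraries, against 1637 for TRAV6 and 1458 for TRAV7, so its shares carry more counting error. The likeness is a description of shares that add up to a common total in each library.

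TRAV9 alpha chains differed from other alpha chains in the segments they were joined to and paired with. edgeR's quasi-likelihood test of TRAV9 against other receptors within libraries called 3 of 77 TRAJ, TRBV and TRBJ segments (3.90%) at an adjusted p of 0.05: TRAJ27 and TRBV10 were used more by TRAV9 receptors and TRAJ22 less. TRAJ27 is a J segment of the alpha chain, and TRBV10 a V segment of the beta chain, which rearranges separately from the alpha chain.

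TRAJ27 made up 6.03%, 5.03% and 2.76% of TRAV9 receptors in the LNP-Ctrl libraries and 7.69%, 7.27% and 11.5% in the LNP-P20-mAb libraries. Among other receptors its share was 1.61% to 3.24%. The TRAV9 share was higher in 5 of 6 libraries, with LNP-Ctrl 3 the exception, and the log2 difference was 1.06 ± 0.24 (SE; edgeR adjusted p = 0.00137). With LNP-P20-mAb 1 and 2 pooled it was 0.98 (edgeR adjusted p = 0.00315).

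TRBV10 made up 7.04%, 5.62% and 5.25% of TRAV9 receptors in LNP-Ctrl and 9.23%, 10.9% and 12.8% in LNP-P20-mAb, against 3.41% to 5.36% of other receptors. It was higher with TRAV9 in 6 of 6 libraries, by 0.78 ± 0.20 on the log2 scale (SE; edgeR adjusted p = 0.00354). TRAJ22 made up 0% to 5.03% of TRAV9 receptors against 5.83% to 7.42% of others, lower in 6 of 6 libraries, by a log2 difference of -0.66 ± 0.21 (SE; edgeR adjusted p = 0.0427). TRAJ27 and TRBV10 also passed in DESeq2, and TRAJ22 did not (adjusted p = 0.202). TRAJ22 lost its call with any 1 library left out (edgeR adjusted p = 0.0626 to 0.132). With cells of 1 alpha chain only, neither TRBV10 nor TRAJ22 passed (edgeR adjusted p = 0.0657 each). These calls rest in part on LNP-P20-mAb 3: without that library 0 segments passed, with log2 differences of 0.81 for TRAJ27, 0.59 for TRBV10 and -0.66 for TRAJ22 (edgeR adjusted p = 0.132, 0.139 and 0.132), and 10 of 77 were below an unadjusted p of 0.05. The difference of these contrasts between treatments, tested as an interaction in edgeR, passed for 0 of 77 segments, with 6 below an unadjusted p of 0.05 and an adjusted p of 0.196 for TRAJ27.

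**Figure D3:**
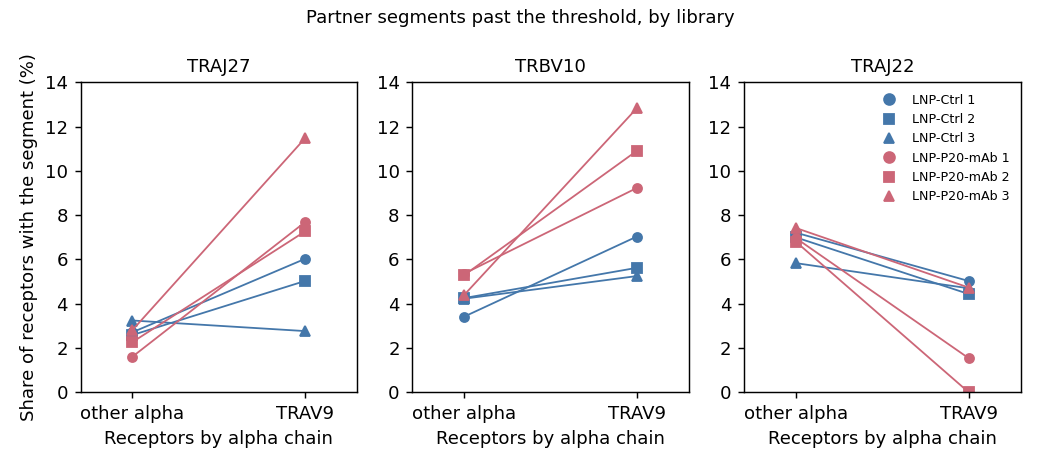
Share of receptors with TRAJ27, TRBV10 or TRAJ22 (y axis, percent), for receptors with other alpha chains and with TRAV9 (x axis); each line is 1 library. The TRBV10 lines rise in all 6 libraries, the TRAJ27 lines in 5, and the TRAJ22 lines fall in all 6.

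The excess of TRAJ27 and that of TRBV10 lay in the same receptors. Of 65 TRAV9 receptors with TRAJ27, 32 (49.2%, exact 95% interval 36.6% to 61.9%) were paired with TRBV10. Among TRAV9 receptors with another TRAJ the count was 51 of 1102 (4.63%). Among other alpha chains it was 11 of 304 (3.62%) with TRAJ27 and 449 of 10608 (4.23%) without. Receptors without TRBV10 used TRAJ27 in 3.04% of TRAV9 and 2.80% of other cases. The pairing was picked after its values were seen, so it carries no test of its own, and intervals cover counting error only.

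All 6 libraries held the pairing. It was seen in 5 of 12 TRAV9 TRAJ27 receptors in LNP-Ctrl 1, 6 of 17 in LNP-Ctrl 2 and 2 of 10 in LNP-Ctrl 3. In LNP-P20-mAb 1, 2 and 3 it was seen in 4 of 5, 4 of 4 and 11 of 17. The LNP-P20-mAb shares were all above the LNP-Ctrl shares, but the counts are small and 3 of the receptors were common to LNP-P20-mAb 1 and 2. Their clonotypes held 11, 17 and 2 cells in LNP-Ctrl and 16, 12 and 47 in LNP-P20-mAb, at most 1.65% of a library.

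**Figure D4:**
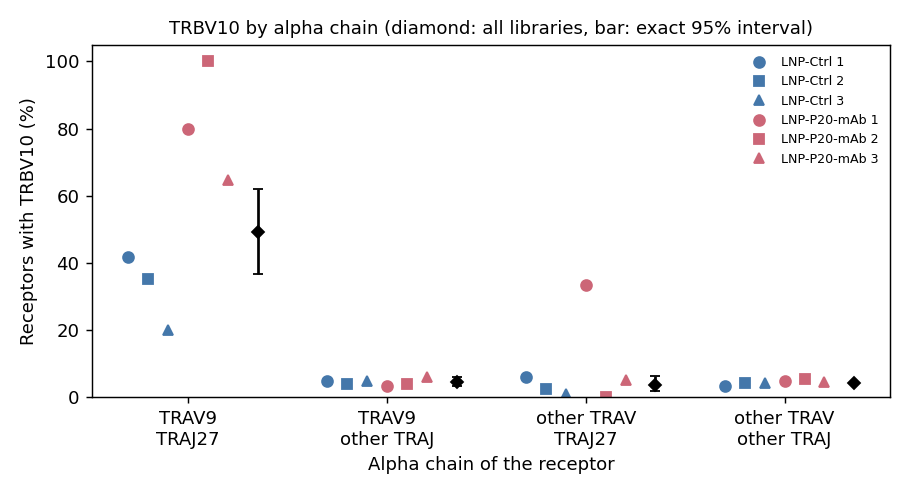
Share of receptors paired with TRBV10 (y axis, percent) by V and J segment of the alpha chain (x axis); symbols are libraries, diamonds are all libraries together and bars their exact 95% interval. TRAV9 with TRAJ27 stands at 49.2% over all libraries, and the other classes lie between 3.62% and 4.63%, with 1 library at 3 of 9 receptors for other TRAV with TRAJ27.

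The pairing was seen with the unmarked segments. TRBV10 was the partner in 21 of 30 TRAJ27 receptors of TRAV9-2, 8 of 14 of TRAV9-4 and 3 of 4 of TRAV9-1. It was the partner in 0 of 17 of the D and N copies (exact 95% interval 0% to 19.5%), 11 of them TRAV9N-3, against 32 of 48 (66.7%, 51.6% to 79.6%) of the unmarked segments. TRAV9-2 and TRAV9-4 gave 29 of the 32, and they also formed 30 and 14 of those 48 TRAJ27 receptors. They encode the same CDR1 and CDR2 residues, while TRAV9-1, with 3 of 4, differs from them in both loops. Whether these loops bear on the pairing was not tested. The 3 TRAV9-1 receptors with the pairing used TRBJ2-7, TRBJ1-5 and TRBJ1-1, and each was in a clonotype of 1 cell.

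The loops of the 32 receptors were also alike in length. The alpha CDR3 had 13 residues in 31 of them and the beta CDR3 15 residues in 30, beside 403 and 274 of all 1167 TRAV9 receptors. TRBJ2-3 was used by 24 of the 32, and by 3 of the 33 TRAV9 TRAJ27 receptors with other TRBV. Among 51 TRAV9 receptors with TRBV10 and another TRAJ, 20 used TRBJ2-3 and 24 had a beta CDR3 of 15 residues. In the printed sequences the beta loops keep the same TRBV10 start, and what lies between it and the J segment varies. The 32 receptors comprised 21 alpha and 26 beta sequences, in 29 distinct pairs. The alpha loops held 0 to 8 bases that matched neither V nor J, with a median of 1, where all TRAV9 receptors had a median of 3.

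A smaller number of TRAV9 receptors with 2 other J segments showed the same features. TRBV10 was the partner in 8 of 37 receptors with TRAJ37 and 6 of 24 with TRAJ52, and of these 14, 13 had an alpha CDR3 of 13 residues, 13 a beta CDR3 of 15 residues and 13 used TRBJ2-3. These J segments were singled out after their values were seen.

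One alpha chain linked many of these receptors. The TRAV9-2 TRAJ27 chain of the 12-cell clone printed above, counting all base versions that encode its CDR3, occurred in 5 of 6 libraries, in 10 receptors with 8 different beta chains, all with TRBV10. It was the TRAV9 alpha chain in the most libraries. Next was the TRAV9N-3 TRAJ33 chain of the second TRAV9N-3 clone, in 4 libraries and 7 receptors, none with TRBV10. Of 1055 distinct TRAV9 alpha chains, 5.69% were in 2 or more libraries, beside 5.24% of 9954 other alpha chains.

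Receptors with the TRAJ27 and TRBV10 pairing were often in clones of 2 or more cells. This held for 17 of 32 (53.1%), against 3 of 33 TRAV9 TRAJ27 receptors with other TRBV and 11.8% of all TRAV9 receptors. These totals mix the libraries in unlike proportions. All TRAV9 receptors numbered 199, 338 and 362 in LNP-Ctrl and 65, 55 and 148 in LNP-P20-mAb. By library the counts for the pairing were 1 of 5, 3 of 6 and 0 of 2 in LNP-Ctrl and 3 of 4, 3 of 4 and 7 of 11 in LNP-P20-mAb. The 3 in LNP-P20-mAb 1 and the 3 in LNP-P20-mAb 2 were the same receptors by bases, counted in each library. Among all TRAV9 clonotypes, those of 1 cell were 174 of 198, 300 of 336 and 339 of 359 in LNP-Ctrl. They were 50 of 64, 36 of 55 and 123 of 148 in LNP-P20-mAb, where larger clonotypes were thus a greater share. The clones with the pairing were small, the largest being of 12 cells in LNP-P20-mAb 3. This was not tested, as the pairing was picked from these values.

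Clone sizes of the whole family differed mainly between libraries. Cells in clonotypes of 2 or more cells made up 41.2%, 32.6% and 12.4% of TRAV9 cells in LNP-Ctrl and 90.0%, 89.7% and 44.8% in LNP-P20-mAb. The groups did not overlap (28.7% ± 14.8 against 74.8% ± 26.0, SD, n = 3 each), and the exact permutation p of 0.1 is the smallest that 3 against 3 allows (adjusted 0.2). With LNP-P20-mAb 1 and 2 pooled the difference of 46.1 percentage points was 38.9 (exact permutation p = 0.1). Other cells moved likewise, with 51.5%, 25.2% and 11.8% in LNP-Ctrl and 85.3%, 83.8% and 59.7% in LNP-P20-mAb. Within libraries TRAV9 cells differed from other cells by -1.09 percentage points on average, lower in 2 of 6 libraries (exact sign-flip permutation p = 0.8125). The sign turned without LNP-Ctrl 1 (0.754 points) or LNP-P20-mAb 3 (1.66 points).

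**Figure D5:**
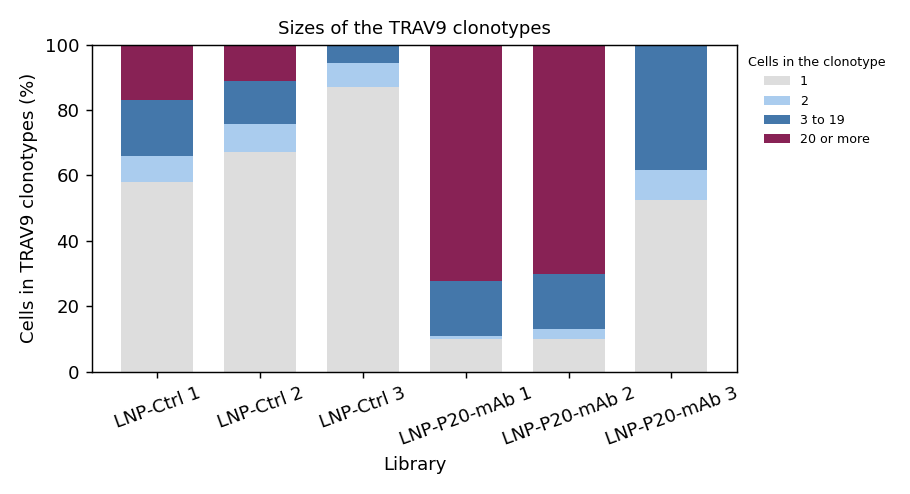
Share of the cells in TRAV9 clonotypes (y axis, percent, all cells of the clonotype counted) by the number of cells in the clonotype (colours) in each library (x axis). Clonotypes of 20 or more cells hold 72.3% and 70.0% in LNP-P20-mAb 1 and 2, 17.0% and 11.2% in LNP-Ctrl 1 and 2, and 0% in LNP-Ctrl 3 and LNP-P20-mAb 3.

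Clonotypes of 20 or more cells numbered 78 over all libraries, and 11 of them had a TRAV9 chain, beside 1160 of 10624 clonotypes of any size. A clone of this size in both LNP-P20-mAb 1 and 2 was counted in each. The largest TRAV9 clone joined TRAV9-2 to TRAJ48 and paired with TRBV15. It held 264 cells of LNP-P20-mAb 1 and 162 of LNP-P20-mAb 2, or 8.09% and 8.04% of all cells and 53.0% and 46.2% of TRAV9 cells there. LNP-P20-mAb 3 and the LNP-Ctrl libraries had 0 cells of it.

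The next TRAV9 clones of LNP-P20-mAb 1 and 2 used TRAV9N-3. A TRAV9N-3 TRAJ7 clone with TRBV16 had 40 and 42 cells. Another, with TRBV2, had 17 and 23, of which 14 and 20 carried the alpha chain. Clonotypes with a TRAV9N-3 TRAJ7 chain held 64 and 72 cells in these libraries and 2 to 4 in each of the others. The first TRAV9N-3 TRAJ33 clone printed above had 31 and 23 cells and the second 28 and 2. Their beta chains encode the same CDR3 residues with different bases, and their alpha chains differ, so these are separate rearrangements.

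The large TRAV9 clones of LNP-Ctrl were others. LNP-Ctrl 1 had 30 cells of TRAV9-2 TRAJ49 with TRBV26 and 21 cells of TRAV9-1 TRAJ31 with TRBV3. LNP-Ctrl 2 had 50 cells of TRAV9-1 TRAJ6, whose beta chain is named TRBV12-2+TRBV13-2 in the files. The largest TRAV9 clone had 7 cells in LNP-Ctrl 3 (TRAV9-1 TRAJ39 with TRBV13-3) and 16 in LNP-P20-mAb 3 (TRAV9N-3 TRAJ42 with TRBV19).

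Use of the members in expanded clonotypes was compared with that in single-cell clonotypes of the same library. edgeR's quasi-likelihood test called 2 of 155 segments (1.29%) and 0 of 7 TRAV9 members. At an unadjusted p of 0.05 the counts were 24 of 155 segments (15.5%) and 1 of 7 members, and DESeq2 called 0 members. That member was TRAV9-2, with a log2 difference of 1.26 ± 0.39 between clonotypes of 3 or more cells and single cells (SE; edgeR adjusted p = 0.0578). It passed when clonotypes of 2 or more cells were counted as expanded (1.39, edgeR adjusted p = 7.67e-05), with 4 of 155 segments (2.58%) called in all. Across alternatives its adjusted p ran from 7.67e-05 to 0.389. With LNP-P20-mAb 1 and 2 pooled it was 0.251, and without LNP-Ctrl 3 the member passed at 0.0308.

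Of 225 TRAV9-2 receptors, 23 (10.2%) were in clones of 3 or more cells, and 12 of these 23 had the TRAJ27 and TRBV10 pairing. Without the pairing the count was 11 of 204 (5.39%), beside 5.20% of all TRAV9 receptors without it. In clones of 2 or more cells it was 30 of 204 (14.7%) beside 10.7%. In all these counts a receptor found in both LNP-P20-mAb 1 and 2 was counted in each. For TRAV9-4 the log2 difference was 0.84 ± 0.44 and for TRAV9-1 0.93 ± 0.53. For TRAV9N-3 it was -0.11 ± 0.38, for TRAV9N-4 0.15 ± 0.68 and for TRAV9D-1 0.59 ± 1.08. TRAV9N-2 had 0 of its 32 receptors in clones of 3 or more cells. No difference between treatments in these contrasts passed (0 of 155 segments, 3 below an unadjusted p of 0.05, edgeR interaction).

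Over receptors, the TRAV9 CDR3 was on average 13.6 residues long and that of other alpha chains 13.7. It was shorter in 5 of 6 libraries, by -0.109 residues, which did not pass (exact sign-flip permutation p = 0.09375, adjusted 0.2). TRAV9 chains had fewer UMIs in 5 of 6 libraries, with a mean log2 count of 2.62 ± 0.30 against 2.81 ± 0.31 (SD, n = 6; exact sign-flip permutation p = 0.0625, adjusted 0.2, where 6 libraries cannot go below 0.031). Chains with few UMIs are more easily missed, and the part of this in the counts of TRAV9 receptors was not tested.

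Some pairs of TRAV9 receptors had the same residues in both CDR3 loops with different bases. A TRAV9N-4 TRAJ22 alpha chain with a TRBV3 beta chain occurred in all 3 LNP-Ctrl libraries, in 8 cells, with 1 alpha sequence and 3 base versions of the beta chain, shown here because they differ only at the V end of the loop.
Alpha: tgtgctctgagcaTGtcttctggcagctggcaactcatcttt
Beta, version a: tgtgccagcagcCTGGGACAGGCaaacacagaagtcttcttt
Beta, version b: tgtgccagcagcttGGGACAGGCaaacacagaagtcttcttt
Beta, version c: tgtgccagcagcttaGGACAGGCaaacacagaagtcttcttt
Of 1139 TRAV9 receptors that were distinct by residues, 22 (1.93%) were in 2 or more libraries, and 7 (0.615%) when LNP-P20-mAb 1 and 2 counted as 1. For other receptors these shares were 1.22% and 0.177%. The difference was not tested.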

How the data were processed

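The members and lists were chosen with earlier results of these data known. The deposited files list assembled TCR chains with their segments, loops and raw counts of reads and UMIs per chain; per the submitters' processing notes Cell Ranger 8.0.1 was used, which also name genome builds without saying how they were used; coordinates are left out. Cell and chain calling was the authors'.

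Repeated listings of a chain in one cell were merged. Cells with exactly 1 TRB and 1 or 2 TRA chains were kept, which removes candidate doublets. An alpha chain belonged to a clonotype if at least 25% of its cells carried it. Segments with 30 or more clonotypes were tested in edgeR 4.0.16 (R 4.3.3; quasi-likelihood, number of clonotypes as library size, Benjamini-Hochberg over all segments tested), with the library as block for comparisons within libraries. DESeq2 1.42.0 was an alternative. The standard error is the log2 change divided by the square root of F. Single values used two-sided exact permutation tests (20 assignments, or 64 sign flips) in scipy 1.17.1. Exact intervals are Clopper-Pearson at 95%. The fits were also run on simulated independent counts with known changes. Those counts held no receptors shared between libraries, so they do not show how the fits behave where LNP-P20-mAb 1 and 2 share receptors. Libraries held 2016 to 3923 paired cells. Segments were named if they passed the threshold, clones if they had 20 or more cells or were the largest of a library, and shared alpha chains if in the most libraries. All 10 members matched RefSeq names.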

Additional observations from a re-analysis of the deposited data

How the results depend on the processing

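The main fits over segments and the single-value tests were recomputed with 2-TRB barcodes kept, LNP-P20-mAb 1 and 2 pooled, and each library left out. With a library left out, TRAV9N-2 and TRAV9D-1 often fell below the filter. The interaction fits were not recomputed, nor were the results given as description. Among the latter are the counts of the TRAJ27 and TRBV10 pairing, by member and by loop length. The fits over segments were also run with TMM scaling, DESeq2 and other filters, and the counts of members called with copies merged. Alternatives chosen after seeing the data were alpha chains of any cell of a clonotype and no largest TRAV9 clone. The count of TRAV9 members called between treatments was 0 to 1 with a library left out, the 1 being TRAV9N-3 without LNP-Ctrl 1, when 14 segments in all were called against 4. By expansion it was 0 to 1 with a library left out, 1 with alpha chains of any cell, and 1 with expanded clonotypes of 2 or more cells. Partner segments called numbered 5 with LNP-P20-mAb 1 and 2 pooled, 1 with 1 alpha chain per cell, 5 without TRAV segments at the locus ends, and 0 to 7 with a library left out (7 without LNP-Ctrl 2, 2 without LNP-Ctrl 1, LNP-P20-mAb 1 or LNP-P20-mAb 2, 0 without LNP-P20-mAb 3).

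The UMI difference reached -0.20 with 2-TRB barcodes kept and -0.19 for chains of 2 or more UMIs (exact permutation p = 0.031 each). Without the largest clone the TRAV9 share of cells differed by -1.58 points. With a library left out, the expanded share of TRAV9 against other cells ran from -2.78 to 1.66, TRAV9D-1 from -0.38 to 0.11 by treatment and -0.23 to 0.93 by expansion, TRAV9N-3 by expansion from -0.32 to 0.053, and TRAV9N-4 by expansion from -0.47 to 0.48. TRAV9N-4 by expansion was also -0.15 with TMM, -0.10 with DESeq2 and -0.11 with 2-TRB barcodes kept. The cause was not tested.

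The replicate numbers gave no sign of pairing: same-numbered libraries had correlations of -0.0655, -0.1495 and -0.0645. With the replicate block 0 TRAV9 members were called between treatments, and the differences in shares had exact permutation p = 0.5 for cells, 0.25 for clonotypes and 0.25 for expanded cells. Depth limits the rare copies: TRAV9D-4 had 4 receptors.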
